A study of Mus musculus with 8 samples.

Results

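Metallothioneins and zinc transporters are described here in the brains of fasted and fed mice. The members are 10 genes, Mt1, Mt2, Mt3, Slc30a1, Slc30a3, Slc30a4, Slc30a10, Slc39a1, Slc39a10 and Slc39a14, and every non-control probe that the array design assigns to one of these names was read. That gave 11 of the 39429 probes on the array, 1 per gene except for Mt1, which has 2. The mice had been fasted for 17 h or had stayed fed over the same time, and their brains were taken. There are 4 samples in each group and 8 single-colour arrays in all. The labels give no strain, sex or age and do not say how many mice made up a sample, and a p-value here reflects how much the samples vary, in part perhaps for technical reasons. Fasted samples sat at positions 1 and 3 of each of the 2 slides and fed samples at positions 2 and 4, so that position and fasting cannot be told apart.

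Metallothioneins are small cysteine-rich proteins that bind zinc and copper in the cytoplasm. Mt1 and Mt2 are made in many tissues, in the brain chiefly by astrocytes and other non-neuronal cells, and their transcription is induced by zinc through the metal-responsive factor MTF-1 and by glucocorticoids. Mt3 is the brain-enriched form and responds little to either. Zinc itself is moved by a pair of families with opposite direction: SLC30 proteins (ZnT) carry it out of the cytoplasm, across the plasma membrane or into vesicles, and SLC39 proteins (ZIP) carry it into the cytoplasm. Slc30a1 at the plasma membrane is, like Mt1 and Mt2, a known target of MTF-1.

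MTF-1 binds metal response elements, whose core was searched for as TGCACNC or TGCGCNC on both strands of the promoters, from 250 bases before to 30 bases after the start of each gene in RefSeq (GRCm38.p6). Windows were found for 9 of the 10 members, 11 windows in all, since Slc30a3 and Slc39a10 have 2 starts each. Slc39a14 was not matched. The 3 metallothionein windows on chromosome 8 are printed because Mt1 and Mt2 rose and their neighbour Mt3 did not pass the test, that of Slc30a1 as the other known target of the factor, and that of Slc30a10 as the exporter that fell. The windows are chr8:94178839-94179118 for Mt1, chr8:94172368-94172647 for Mt2, chr8:94152357-94152636 for Mt3, chr1:191906531-191906810 for Slc30a1 and chr1:185454598-185454877 for Slc30a10, all on the plus strand. Capitals mark the core matches, and a match on the other strand is read in reverse complement.
Mt1: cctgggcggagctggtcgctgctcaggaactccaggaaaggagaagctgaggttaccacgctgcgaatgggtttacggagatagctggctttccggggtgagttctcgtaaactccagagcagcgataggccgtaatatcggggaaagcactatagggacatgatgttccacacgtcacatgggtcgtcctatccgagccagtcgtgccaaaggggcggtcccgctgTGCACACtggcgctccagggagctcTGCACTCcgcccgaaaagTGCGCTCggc
Mt2: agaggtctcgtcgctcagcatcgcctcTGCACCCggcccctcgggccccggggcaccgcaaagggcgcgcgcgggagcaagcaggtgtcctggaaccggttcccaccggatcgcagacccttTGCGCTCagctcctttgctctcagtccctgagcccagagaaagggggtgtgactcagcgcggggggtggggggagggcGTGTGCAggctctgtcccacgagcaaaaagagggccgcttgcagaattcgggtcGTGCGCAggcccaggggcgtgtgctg
Mt3: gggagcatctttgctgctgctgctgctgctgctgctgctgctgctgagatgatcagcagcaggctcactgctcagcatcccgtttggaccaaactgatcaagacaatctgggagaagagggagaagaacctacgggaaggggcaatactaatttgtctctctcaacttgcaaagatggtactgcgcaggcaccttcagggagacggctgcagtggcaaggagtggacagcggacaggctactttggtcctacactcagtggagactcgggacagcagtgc
Slc30a1: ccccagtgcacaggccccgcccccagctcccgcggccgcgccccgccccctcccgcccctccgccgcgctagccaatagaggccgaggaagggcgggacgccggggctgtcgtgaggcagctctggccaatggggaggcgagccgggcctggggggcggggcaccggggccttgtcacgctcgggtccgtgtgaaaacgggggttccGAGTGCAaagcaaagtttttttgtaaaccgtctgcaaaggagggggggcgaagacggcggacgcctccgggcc
Slc30a10: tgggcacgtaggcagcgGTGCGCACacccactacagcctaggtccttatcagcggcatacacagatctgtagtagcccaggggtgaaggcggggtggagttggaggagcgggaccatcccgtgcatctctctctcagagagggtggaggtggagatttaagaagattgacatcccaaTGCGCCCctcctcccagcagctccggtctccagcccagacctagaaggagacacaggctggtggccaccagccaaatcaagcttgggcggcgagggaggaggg

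The Mt2 window held 4 matches and the Mt1 window 3, against 0 in the Mt3 window. Slc30a1 had 1 match. Slc30a4 and Slc30a10 had 3 matches each, with 2 of those in Slc30a10 overlapping on opposite strands. Of the 2 Slc30a3 windows 1 held a match, and Slc39a1 and both Slc39a10 windows held 0. Over all 32851 RefSeq promoter windows cut in the same way, 24.1% held at least 1 match, 6.37% at least 2, 1.73% at least 3 and 0.405% at least 4. Those windows were not matched for GC content, which was 59.6% in the Mt1, 68.6% in the Mt2 and 55.4% in the Mt3 window. Mt1 and Mt2 were known targets of MTF-1 beforehand, so the matches in their windows are no new result. A match describes the letters of the window and is not a measured binding site. A window without one says nothing of the factor's action elsewhere.

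**Figure D1:**
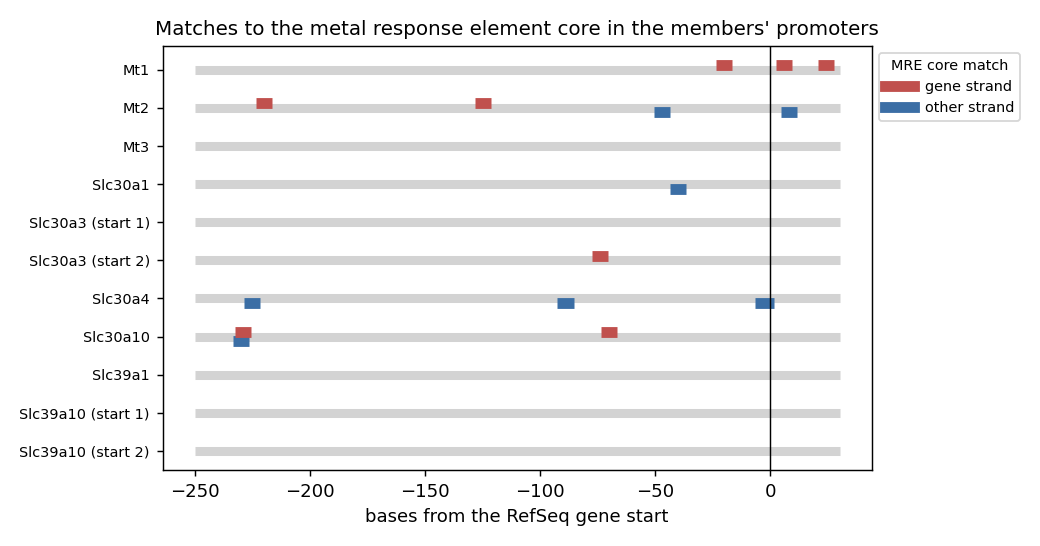
Positions of metal response element cores in the promoter windows of the 9 matched members, in bases from the RefSeq gene start (vertical line). Grey bars are the windows, red marks are matches on the gene's strand and blue marks matches on the other strand; Mt1 has 3, Mt2 has 4 and Mt3 has 0.

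All 11 member probes were well above background on all 8 arrays, and none was saturated or carried an outlier flag. Values are given as scaled log2 signal, the log2 of the processed signal less the array's own 75th percentile, so that 0 is the level of the 75th percentile probe of that array. The scale serves to compare arrays for 1 probe and not to compare probes. Over the whole array 26066 probes were tested with limma. A probe is said to have risen or fallen where its adjusted p (Benjamini-Hochberg over all 26066) was below 0.05, which held for 16.9% of them, 8.4% higher and 8.55% lower in fasted brain. Neuronal markers checked the tissue, as all 6 that were listed (among them Snap25 and Syt1) were well above background on all 8 arrays. Fed replicates 1 and 3 correlated no better with their own group than with the fasted arrays across probes (mean r of 0.993 and 0.993 within the fed group and 0.994 and 0.993 with the fasted group).

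Among the members, RNA of the metallothioneins Mt1 and Mt2 rose in fasted brain, Mt2 by 1.52-fold and Mt1 by 1.36-fold at its RefSeq-matched probe. RNA of the transporters Slc30a10 and Slc39a10 fell, each by 1.16 to 1.17-fold, and protein was not measured. In all 4 of the 11 member probes passed the threshold (36.4%, against 16.9% of all tested probes), 2 higher and 2 lower, and 7 did not pass. The fasted and fed values did not overlap for 5 of the 11 probes (45.5%), against 24.8% of all tested probes. The median log2 difference of the members was 0.07, and that of all tested probes was -0.01. These shares describe genes chosen with earlier results of these data known.

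**Figure D2:**
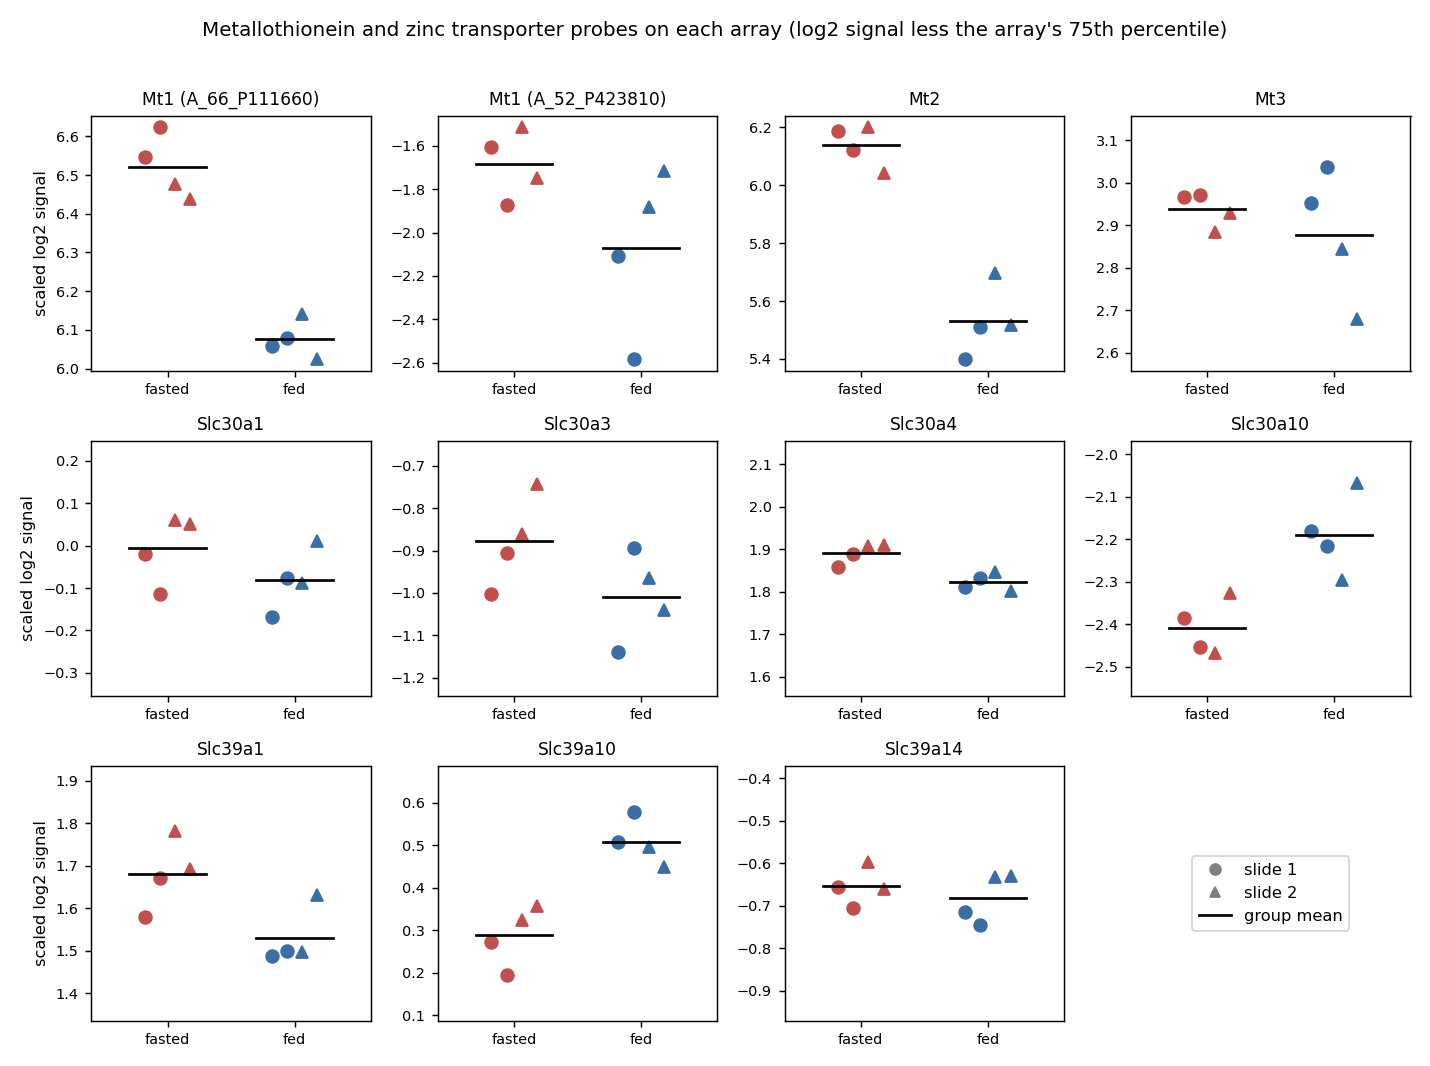
Scaled log2 signal of each member probe on the 8 arrays (y axis, with a range of its own in each panel), fasted left of fed. Circles are arrays of slide 1, triangles arrays of slide 2, and the line is the group mean. The 4 fasted values lie above the 4 fed values for Mt2, Mt1 (A_66_P111660) and Slc30a4, and below them for Slc30a10 and Slc39a10.

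Mt2 encodes the metallothionein that pairs with Mt1 as the inducible form. Its probe A_51_P246317 lies on the plus strand of chromosome 8 at 96697371 to 96697430 (mm9, to which all probe positions refer). Scaled log2 signal of Mt2 was 6.19, 6.12, 6.20 and 6.04 in fasted replicates 1 to 4, against 5.40, 5.51, 5.70 and 5.52 in fed replicates 1 to 4. The lowest fasted array lay above the highest fed one, so the groups did not overlap. Mt2 thus differed by 0.61 ± 0.07 in log2 (SE, n = 4 in each group; limma adjusted p = 0.00196), a 1.52-fold rise with a 95% confidence interval of 1.37 to 1.69. Within slide 1 the Mt2 difference was 0.70 and within slide 2 it was 0.51. In size it exceeded the absolute differences of 98.5% of the tested probes, whose median was 0.10.

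Mt1 is the other inducible metallothionein, and both of its probes are reported. The probe A_66_P111660, which carries the RefSeq accession NM_013602, lies on the plus strand of chromosome 8 at 96704165 to 96704224 (mm9). There Mt1 gave 6.55, 6.62, 6.48 and 6.44 in fasted replicates 1 to 4, against 6.06, 6.08, 6.14 and 6.02 in fed replicates 1 to 4. All 4 fasted arrays exceeded all 4 fed arrays, and the spread within each group was small (SD 0.08 in fasted and 0.05 in fed brain). The log2 difference was 0.45 ± 0.05 (SE; limma adjusted p = 0.0019), or 1.36-fold (95% confidence interval 1.26 to 1.47), with 0.52 within slide 1 and 0.38 within slide 2.

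The Mt1 probe A_52_P423810 starts 321 bases upstream of the first, at 96703844 to 96703903, and carries an Ensembl transcript name in the array design (ENSMUST00000062980) and no RefSeq accession. Its scaled log2 signal was -1.61, -1.87, -1.52 and -1.75 in fasted replicates 1 to 4, against -2.11, -2.58, -1.88 and -1.72 in fed replicates 1 to 4. The groups overlapped, fed replicate 4 lying above 2 of the fasted arrays, and fed values spread widely (SD 0.37). The log2 difference was 0.39 ± 0.18 (SE; limma adjusted p = 0.175), with a 95% confidence interval of -0.02 to 0.80. It was 0.60 within slide 1 and 0.17 within slide 2, and 0.22 without fed replicate 2, the lowest array. That interval takes in the difference at A_66_P111660, so the 2 probes differ in their noise and their call, and a difference in their response was not shown. Between the RefSeq-matched Mt1 probe and the Mt2 probe the longest identical run was 7 of 60 bases, and the 2 probes lie 6794 bases apart.

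Mt3, also called growth inhibitory factor, is the metallothionein named for its abundance in brain, and its gene lies in the same cluster on chromosome 8. Its probe A_52_P320971 is at 96677927 to 96677986 on the plus strand (mm9), 19444 bases from the Mt2 probe. Mt3 gave 2.97, 2.97, 2.88 and 2.93 in fasted replicates 1 to 4, against 2.95, 3.04, 2.84 and 2.68 in fed replicates 1 to 4. The groups overlapped almost fully, fed brain holding both the highest and the lowest value. The log2 difference of 0.06 ± 0.07 (SE; limma adjusted p = 0.619) did not pass, and its 95% confidence interval ran from -0.11 to 0.23. The direction is not settled, since it was -0.03 within slide 1 and 0.14 within slide 2, and -0.01 without fed replicate 4.

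The changes within the family were then set against each other. Subtracting one probe's log2 signal from another's on the same array removes the scaling, and the change of Mt2 exceeded that of Mt3 by a log2 value of 0.55 and that of Mt1 (A_66_P111660) exceeded it by 0.39. Both differences had p = 0.0286 in an exact two-sided permutation test over the 8 arrays, the smallest p that 4 against 4 allows, and 0.0327 after adjustment over the 8 gene pairs compared in this way. Within the 4 replicate pairs, all 4 in the same direction for each of the 8 gene pairs, the exact p was 0.125, the smallest that 4 pairs allow, so that with the replicate pairing this design cannot reach the threshold for any of them. The change of Mt2 exceeded that of Mt1 by 0.16, with an exact p of 0.0571 (also 0.0571 adjusted). The 8 pairs were chosen after the calls were seen, so these tests are no independent evidence of an unequal change. The log2 values give its size, which the p-values do not measure.

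Astrocytes, a main source of Mt1 and Mt2 in brain, had 1 of 6 listed markers higher and 1 lower in fasted brain, each marker gene being read at its tested probe of highest mean signal. Over all 12 tested probes of these genes 2 were higher and 3 lower. Of all tested probes on the array 8.4% were higher and 8.55% lower. The glutamate transporter Slc1a2 rose by a log2 value of 0.32, a call that 9 of 19 alternatives kept, and the water channel Aqp4 fell by 0.41, and the mean scaled level of the 6 markers was 1.79 to 1.84 in fasted and 1.76 to 1.84 in fed arrays. Liver makes much metallothionein, and the signal of the liver genes Alb and Serpina1a was highest in fasted replicate 3. Alb, the serum albumin of liver, was -5.41, -3.57, -1.36 and -3.10 in fasted replicates 1 to 4, against -4.40, -4.28, -3.90 and -4.48 in fed replicates 1 to 4. Fasted replicates 2, 3 and 4 thus lay above all fed arrays, and fasted replicate 1 lay below them. Alb was well above background on 3 fasted and 3 fed arrays. Its value in fasted replicate 1 is a background-level reading, below the lowest value of any probe well above background there (-4.89). Serpina1a (A_55_P2165414), another liver gene, showed the same split, with -4.20, -2.55, -0.80 and -2.44 in fasted replicates 1 to 4, against -3.45, -3.72, -2.66 and -3.98 in fed replicates 1 to 4, while at its other tested probe (A_55_P2010312) fasted replicates 2 and 4 lay within the fed range. Of the 4 liver markers 0 passed, only Alb and Serpina1a were tested, Apoa1 was well above background on 0 arrays and Fgb on 1 array, and the mean level of the 2 tested genes was -4.80 to -1.08 in fasted and -4.23 to -3.28 in fed arrays. Fasted replicate 1, lowest of the 8 arrays in Alb and Serpina1a, had 6.55 for Mt1 and 6.19 for Mt2, both above all fed arrays. Fasted replicate 3, the array with the most Alb, had the highest Mt2 of all arrays (6.20) and less Mt1 (6.48) than fasted replicates 1 and 2. Without fasted replicate 3 the log2 difference was 0.46 for Mt1 (limma adjusted p = 0.0048) and 0.59 for Mt2 (limma adjusted p = 0.0062). That fit keeps fasted replicates 2 and 4, whose Alb also lay above all fed arrays. Whether the samples held liver RNA, and its part in the rise, was not tested.

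The exporters of the SLC30 family gave 1 fall among 4 members and no rise, where 8.55% of all tested probes fell and 8.4% rose. So few chosen genes do not describe the family. Slc30a10 was 1.16-fold lower in fasted brain, while Slc30a1, Slc30a3 and Slc30a4 did not pass.

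Slc30a10 is a plasma membrane exporter that carries manganese, and its loss causes manganese to build up in the human brain. Its probe A_52_P883557 lies on chromosome 1 at 187292107 to 187292166, plus strand (mm9). Slc30a10 gave -2.39, -2.45, -2.47 and -2.33 in fasted replicates 1 to 4, against -2.18, -2.22, -2.30 and -2.07 in fed replicates 1 to 4. The highest fasted value lay just below the lowest fed value, a gap smaller than the spread within either group. The log2 difference was -0.22 ± 0.06 (SE; limma adjusted p = 0.0345), which is lower by 1.16-fold after fasting (95% confidence interval 1.06 to 1.27), and it was -0.22 within each slide. Before scaling, the intensities were 372, 308, 347 and 360 in fasted replicates 1 to 4, against 364, 366, 345 and 426 in fed replicates 1 to 4, and these overlap. The call was lost without any 1 of fasted replicates 1, 2 and 3 or fed replicates 1, 2 and 4, with limma adjusted p up to 0.085. It was also lost with another background correction, applied to the mean and not the processed signal, and with no filter on dim probes.

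Slc30a4 loads zinc into vesicles and is known for its part in milk zinc. Its probe A_55_P2103596 (chromosome 2, 122507056 to 122507115, minus strand) gave 1.86, 1.89, 1.91 and 1.91 in fasted replicates 1 to 4, against 1.81, 1.83, 1.85 and 1.80 in fed replicates 1 to 4. The 4 fasted values were all narrowly above the 4 fed ones, and the spread within groups was among the smallest on the array, with 0.936% of tested probes varying less. The log2 difference of 0.07 ± 0.03 (SE; limma adjusted p = 0.143) did not pass.

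Slc30a1 is the exporter at the plasma membrane that MTF-1 is known to induce together with metallothioneins. Its probe A_51_P300572 (chromosome 1, 193736760 to 193736819, plus strand) gave -0.02, -0.12, 0.06 and 0.05 in fasted replicates 1 to 4, against -0.17, -0.08, -0.09 and 0.01 in fed replicates 1 to 4. The groups overlapped, and the log2 difference was 0.07 ± 0.05 (SE; limma adjusted p = 0.379; 95% confidence interval -0.05 to 0.20). The upper bound lies below the lower bounds for Mt1 at A_66_P111660 (0.33) and Mt2 (0.45), but not below that for Mt1 at A_52_P423810 (-0.02).

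Slc30a3 fills synaptic vesicles of glutamatergic neurons with zinc. At its probe A_51_P420859 (chromosome 5, 31390388 to 31390447, minus strand) the values were -1.0025, -0.9065, -0.8618 and -0.7436 in fasted replicates 1 to 4, against -1.1398, -0.8951, -0.9657 and -1.0409 in fed replicates 1 to 4. Fed replicates 2 and 3 lay within the fasted range. The log2 difference was 0.13 ± 0.07 (SE; limma adjusted p = 0.233; 95% confidence interval -0.03 to 0.29).

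Compared within arrays, the change of Slc30a10 was below that of Slc30a1 by a log2 value of 0.29, below that of Slc30a3 by 0.35 and below that of Slc30a4 by 0.29. Each of these 3 had an exact permutation p of 0.0286 (0.0327 adjusted over the 8 pairs). These pairs too were chosen after the calls were seen, and the adjustment does not cover that choice. Within the replicate pairs each had an exact p of 0.125. With 1 array left out the exact permutation p against Slc30a3 was 0.0571 or 0.0857 without fasted replicate 2, 3 or 4 or fed replicate 1 or 4, and against Slc30a4 it was 0.0571 without fasted replicate 2 or 3.

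The importers of the SLC39 family also gave 1 fall and no rise, among 3 members, beside the same 8.55% and 8.4% of all tested probes. Here too the genes are too few to describe the family. Slc39a10 was lower in fasted brain by 1.17-fold, and Slc39a1 and Slc39a14 did not pass.

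Slc39a10 brings zinc into cells across the plasma membrane and in mice is known to be held down by MTF-1 when zinc is plentiful. Its probe A_51_P223498 lies on chromosome 1 at 46865343 to 46865402, minus strand (mm9). Slc39a10 gave 0.27, 0.20, 0.33 and 0.36 in fasted replicates 1 to 4, against 0.51, 0.58, 0.50 and 0.45 in fed replicates 1 to 4. All fasted arrays were below all fed arrays. The log2 difference was -0.22 ± 0.05 (SE; limma adjusted p = 0.0172), which is lower by 1.17-fold after fasting (95% confidence interval 1.08 to 1.25). Slide 1 gave -0.31 and slide 2 gave -0.13. With the replicate number as a block the adjusted p was 0.0594, past the threshold no longer, at the same difference, and the intensities before scaling overlapped between the groups.

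Slc39a1 is a widely expressed importer of the plasma membrane. Its probe A_55_P2098558 (chromosome 3, 90057457 to 90057516, plus strand) gave 1.5808, 1.6727, 1.7822 and 1.6918 in fasted replicates 1 to 4, against 1.4884, 1.5002, 1.4981 and 1.6327 in fed replicates 1 to 4. Of the fed arrays 3 lay close together below all fasted arrays, and fed replicate 4 lay among the fasted ones. The log2 difference of 0.15 ± 0.05 (SE; limma adjusted p = 0.0891) did not pass, with a 95% confidence interval of 0.03 to 0.27 that is not adjusted for the number of probes.

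Slc39a14 carries zinc, iron and manganese into cells and in liver is induced by inflammation. At its probe A_55_P2013760 (chromosome 14, 70703394 to 70703453, minus strand) fasted replicates 1 to 4 gave -0.66, -0.70, -0.60 and -0.66, against -0.71, -0.75, -0.63 and -0.63 in fed replicates 1 to 4. The groups overlapped, and the log2 difference was 0.03 ± 0.04 (SE; limma adjusted p = 0.698; 95% confidence interval -0.07 to 0.12). Of the members it was the nearest to 0. The change of Slc39a10 was below that of Slc39a14 by a log2 value of 0.25 and below that of Slc39a1 by 0.37, both with an exact permutation p of 0.0286 (0.0327 adjusted over the 8 pairs). Without fasted replicate 2 or 3 that p was 0.0571 for both, as it was against Slc39a14 without fasted replicate 1. Both pairs were chosen after the calls were seen, and within the replicate pairs each had an exact p of 0.125.

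Markers of the other cell types are given beside all tested probes, of which 8.4% rose and 8.55% fell. Of 6 microglial markers 4 fell, among them Tmem119 by a log2 value of 0.42 and Aif1 by 0.54, and 0 rose. The mean scaled level of the 6 was 0.708 to 0.930 in fasted and 1.056 to 1.199 in fed arrays. Of 6 oligodendrocyte markers, each at its tested probe of highest mean signal, 3 fell and 0 rose (2.73 to 2.89 in fasted and 2.88 to 2.94 in fed arrays). Over all 10 tested probes of these genes 3 fell and 1 rose. For neurons 0 of 6 markers passed by limma (4.05 to 4.12 in fasted and 4.01 to 4.03 in fed arrays). Of 6 endothelial markers 1 rose and 2 fell, of 6 choroid plexus markers 1 rose and 1 fell, of 6 markers of the meninges 1 fell, and 0 of 3 blood markers passed. The part of these cells in the members' differences was not tested. In tissue RNA of this kind fewer cells of a type and less RNA per cell cannot be told apart.

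The remaining genes of zinc handling give the setting. The list holds Mt4, Mtf1 and the other SLC30 and SLC39 transporters, 19 genes with 26 probes, of which 21 probes of 16 genes were tested. Of these 21 probes 1 rose, 3 fell and 17 did not pass, so that 4 of 21 (19%) passed, near the 16.9% of all tested probes. Their median log2 difference was 0.02.

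Mtf1, which encodes MTF-1 itself, had 2 tested probes that disagreed. The probe A_52_P467266 gave -0.49, -0.56, -0.38 and -0.45 in fasted replicates 1 to 4, against -0.28, -0.26, -0.20 and -0.26 in fed replicates 1 to 4, a log2 difference of -0.22 ± 0.04 (SE; limma adjusted p = 0.0133). The probe A_55_P2069277 gave -3.23, -3.40, -3.09 and -3.22 in fasted replicates 1 to 4, against -3.61, -3.79, -3.54 and -3.52 in fed replicates 1 to 4, a log2 difference of 0.38 ± 0.08 (SE; limma adjusted p = 0.0177). Both carry the accession NM_008636, the first starting at base 6951 and the second at base 2678 of that transcript as the array design numbers it, and neither had overlapping groups. The fall at the first lost its call with median scaling (limma adjusted p = 0.0532) and with normexp background correction (0.0683), and the rise at the second was 0.25 with normexp. No direction can be given for the gene from these probes, and the remaining Mtf1 probe was well above background on 0 arrays.

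Slc30a6, another gene of the SLC30 family, fell. Its scaled log2 signal was -2.38, -2.52, -2.39 and -2.43 in fasted replicates 1 to 4, against -2.18, -2.14, -2.19 and -2.22 in fed replicates 1 to 4. The groups did not overlap, and the log2 difference was -0.25 ± 0.04 (SE; limma adjusted p = 0.0072). Slc30a2, a vesicular zinc transporter, was a dim probe that fell by 0.46 ± 0.13 on the log2 scale (SE; limma adjusted p = 0.0456), with -4.34 to -3.79 in fasted and -3.74 to -3.42 in fed arrays. Its call was lost without any 1 of fasted replicates 1, 2 and 3 or fed replicates 1, 2 and 4 (limma adjusted p up to 0.104), with slide as a block (0.0524) and with no filter on dim probes (0.0918), and with normexp its difference was -0.30. Mt4, the metallothionein of squamous epithelia, was well above background on 2 fasted and 4 fed arrays and had a log2 difference of -0.40 with overlapping groups (limma adjusted p = 0.139), which with the replicate number as a block passed the threshold (0.0435). Slc30a8, Slc39a5 and Slc39a9 were not tested, as each was well above background on fewer than 4 arrays.

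**Figure D3:**
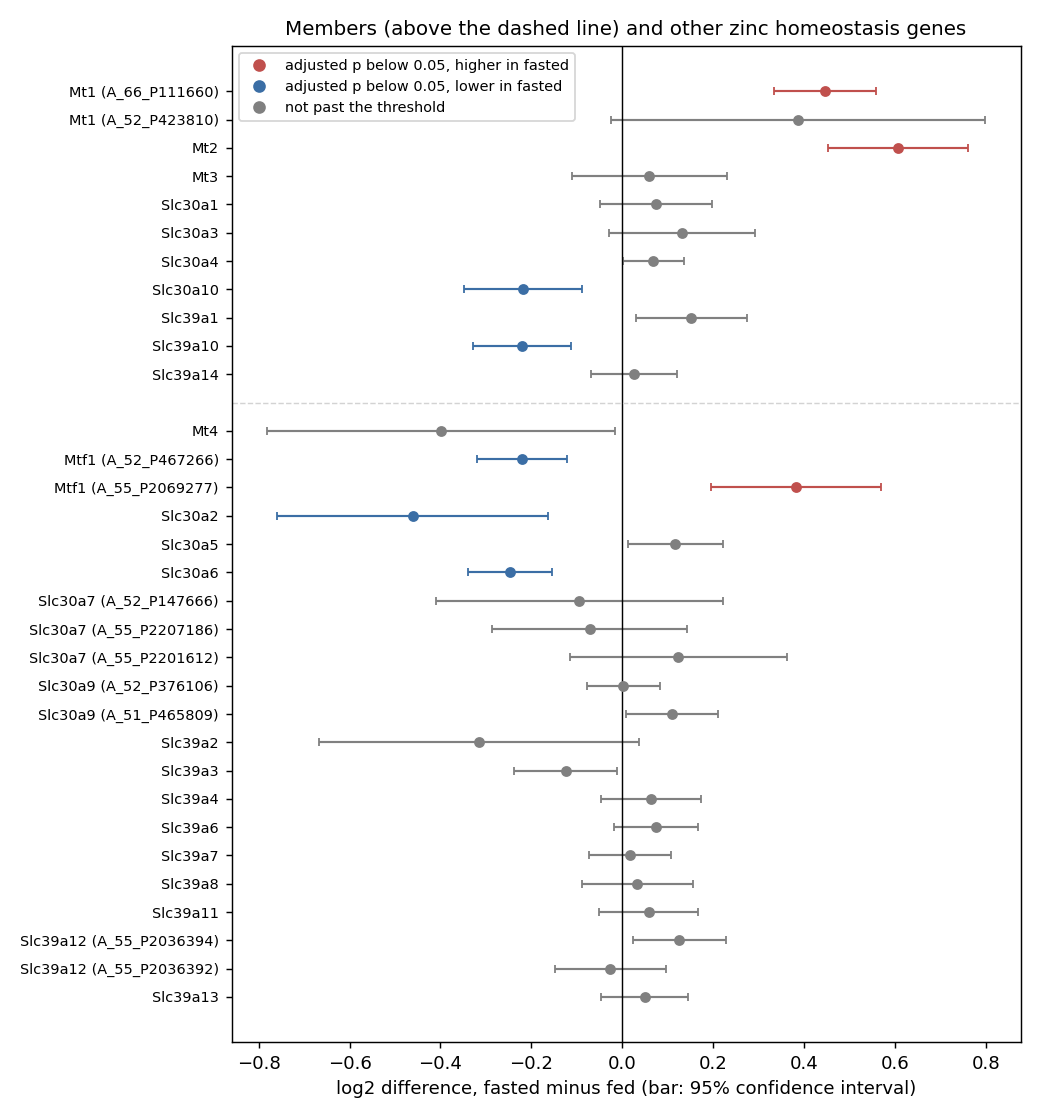
Log2 difference, fasted minus fed, of the 11 member probes (above the dashed line) and of the 21 tested probes of other zinc genes (below it), with 95% confidence intervals. Red points rose, blue points fell and grey points did not pass; the members furthest from 0 are Mt2 at 0.61 and Mt1 at 0.45, and the 2 coloured Mtf1 probes lie on opposite sides of 0.

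The probes whose 8 values lay closest to those of Mt2, each taken as deviations from its own mean over the arrays, belonged to Htra1, Pip5k1a, Acot11, Ezr and Synpo2. Their root-mean-square distances from Mt2 were 0.05, 0.05, 0.06, 0.06 and 0.08 on the log2 scale. The secreted protease Htra1 had a log2 difference of 0.55, the lipid kinase Pip5k1a 0.57, the acyl-CoA thioesterase Acot11 0.56, the membrane-cytoskeleton linker Ezr 0.58 and the actin-binding protein Synpo2 0.64 (0.25 with normexp). Mt1 lay at 0.11, with 0.223% of tested probes closer to Mt2, while Mt3 lay at 0.31, with 34.6% closer. These distances describe 8 arrays that share their 2 slides and their scaling, and a rise of like size in the fasted arrays makes up most of each pattern.

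**Figure D4:**
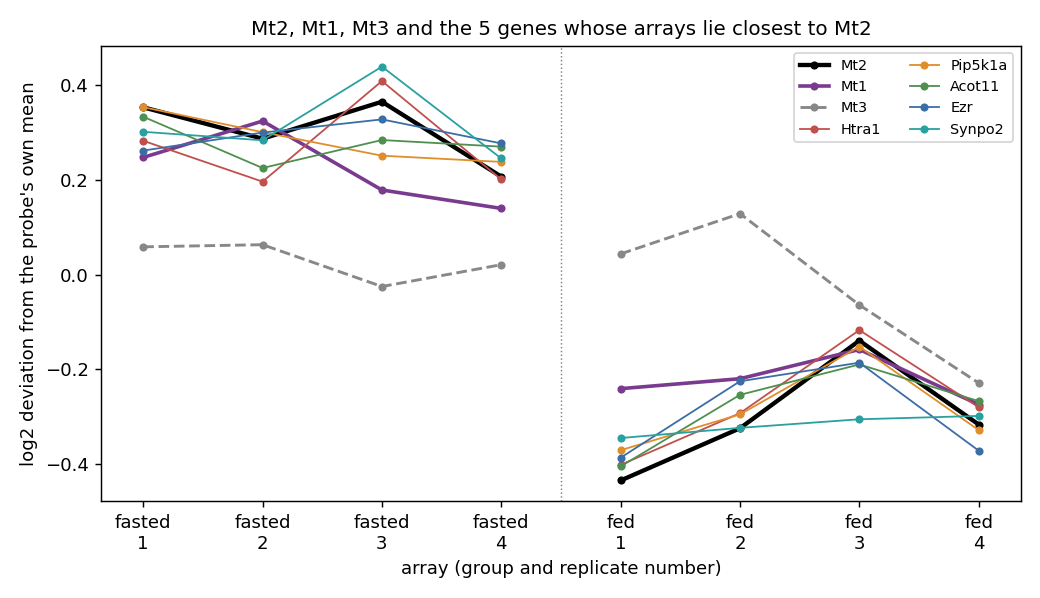
Log2 deviation of each probe from its own mean over the 8 arrays for Mt2, Mt1 (A_66_P111660), Mt3 and the 5 genes closest to Mt2, with fasted arrays left of fed ones. Lines only join the points of a probe within a group, as replicates have no order; Mt2, Mt1 and the 5 genes lie above 0 in all fasted arrays and below 0 in all fed arrays, and Mt3 (dashed) does not.

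The rise of Mt1 at A_66_P111660 and of Mt2 held its direction under all 19 other ways of processing or leaving out arrays and passed the threshold under 17 of them, the exceptions being the fits on 1 slide alone with 2 arrays per group. The log2 difference ranged from 0.38 to 0.52 for Mt1 and from 0.51 to 0.70 for Mt2. The fall of Slc39a10 passed under 15 of the 19 and that of Slc30a10 under 9, both with the same sign throughout. The other 7 member probes passed under 0 of the 19.

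**Figure D5:**
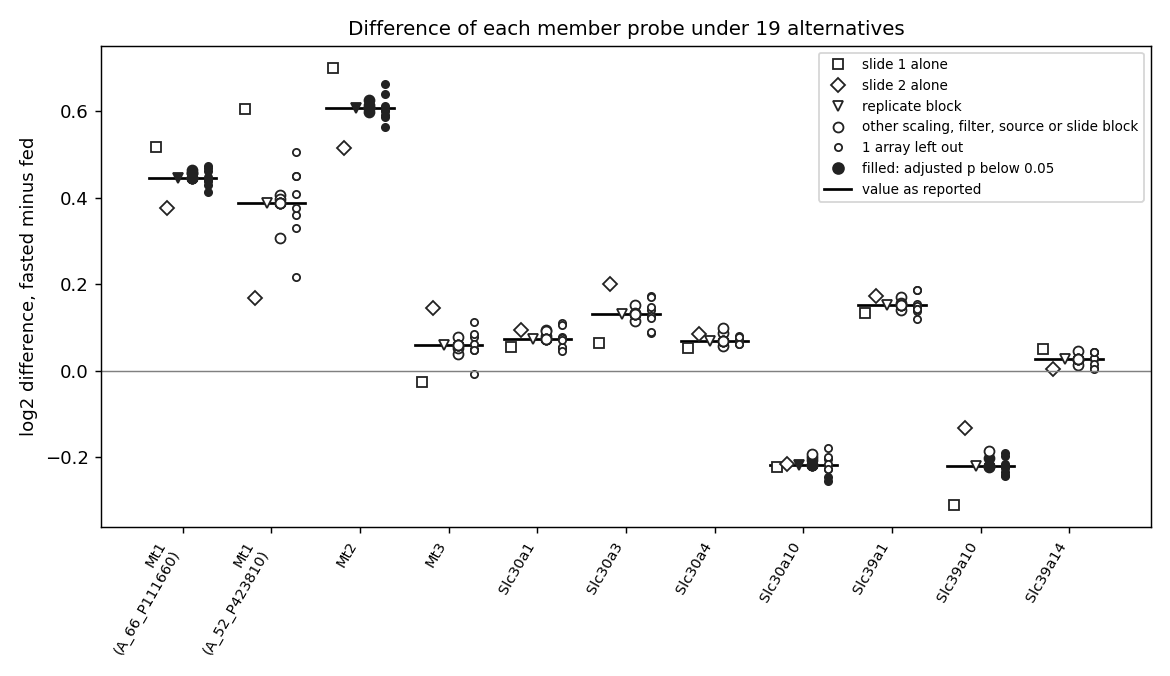
Log2 difference, fasted minus fed, of each member probe under 19 alternatives (y axis), with the value as reported as a line. Filled marks have a limma adjusted p below 0.05; Mt1 (A_66_P111660) and Mt2 are filled except for the 2 single-slide fits, Slc39a10 for 15 and Slc30a10 for 9 of 19.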

How the data were processed

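Brain RNA of 4 fasted and 4 fed samples was measured on single-colour Agilent arrays. The deposited scanner files give an intensity per spot; per the file headers it was extracted by Feature Extraction 11.0.1.1 using spatial plus multiplicative detrending and background code 7, while the submitters' processing notes name version 10.10.1.1. The series table deposited with them gives a linear ratio, which by comparison equals the signal over the array's 75th percentile divided by a constant per probe (SD over arrays 0.000179 on the log2 scale) whose baseline is unknown. Its column medians were 0.970 to 0.993 for fasted and 0.987 to 1.02 for fed arrays, and it served as an alternative.

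Control spots and 128 to 217 outlier-flagged spots per array were left out, processed signals were taken to log2 less the array's 75th percentile (1651 to 1944 intensity units), and each probe's spots were averaged. Probes well above background (at least 0.5 of their spots) on at least 4 of 8 arrays were kept, 26066 of 39429. An array had 24567 to 27220 probes well above background. The number of arrays limits the precision. The test of fasted against fed used limma 3.58.1 under R 4.3.3 (lmFit, eBayes, two-sided, threshold 0.05 after Benjamini-Hochberg). The fit had no block. After group means were removed, fasted and fed arrays with the same number correlated at 0.18, 0.28, 0.29 and 0.18, above 0.1 in each pair. Arrays of the same slide with different numbers correlated at 0.05 to 0.27, and arrays of different slides at -0.39 to -0.10. The labels do not say that the numbers pair the samples. They were treated as a possible pairing, which cannot be told apart from the slide, and a blocked value is given where it changes a call. Same-numbered arrays also share a slide and neighbouring positions. Alternatives covered background correction (normexp with an offset of 50), scaling, filter, flags, slide, block, source and each array left out. The normexp alternative starts from the mean signal of each spot and not from the processed signal, so it changes more than the background correction.

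The members and lists were chosen with earlier results of these data known. Named are every member, other zinc genes with a probe past the threshold, and the 5 genes with values closest to those of Mt2. Markers, Mt4 and untested zinc genes are named outside that rule. Probe positions come from the array design (mm9, per the file headers). Promoters are RefSeq's in GRCm38.p6, and the builds were not mixed.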

Additional observations from a re-analysis of the deposited data

Results flagged for a closer look

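Slc39a1 in fed replicate 4 stood apart from the rest of its group. Its scaled log2 signal there was 1.63, against a mean of 1.496 in the other 3 fed arrays. The gap to its nearest neighbour made up 0.918 of the range of its group. By that ratio, and not by the gap itself, it was the only value flagged among the 22 groups of 4 arrays examined (11 probes in 2 groups). Chance alone sets a value apart in about 1 in 20 such groups. Without that array the log2 difference of Slc39a1 was 0.19, against 0.15 with all arrays, and its limma adjusted p was 0.0565.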

How the results depend on the processing

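Of the members, Mt1 (A_66_P111660) and Mt2 kept their direction under all 19 alternatives and lost the threshold only in the fits on 1 slide (limma adjusted p = 0.116 for both on slide 1, and 0.219 and 0.221 on slide 2). Leaving out 1 array gave adjusted p of 0.0047 to 0.0085 for Mt1 and 0.0025 to 0.0087 for Mt2. Mt3 turned to -0.025 on slide 1 alone and to -0.0067 without fed replicate 4, its lowest value with an array left out (the highest was 0.113), and the cause was not tested. The count of member probes that fell, 2 as reported, was 0 with normexp, 1 without a filter on dim probes (more probes tested), 1 with the replicate block, 0 on either slide alone and 1 to 2 with an array left out. The 2 that rose were 0 on either slide alone (fewer samples) and 2 to 2 with an array left out; limma gave 5 and 2 of 11 probes an unadjusted p under 0.05 on slides 1 and 2. Slc39a10 had adjusted p of 0.0536 with normexp and 0.0594 with the replicate block, and Slc30a10 had 0.0618 with normexp and 0.0788 without the filter. With normexp the fall of Slc30a6 was -0.16. The replicate block changed no other member's limma call; among the other zinc probes it gave 4 falls in place of 3, the one added being Mt4. Within the replicate pairs each within-array comparison had an exact p of 0.125, the smallest that 4 pairs allow. Of the other zinc probes 0 rose and 0 fell on either slide alone, while 6 and 3 of 21 had an unadjusted p under 0.05; with an array left out 1 to 1 rose and 2 to 3 fell. Over all tested probes the 2189 that rose were 1329 with normexp, 1299 without the filter, 1414 to 1831 with an array left out and 0 on either slide alone, and the 2228 that fell were 1306 without the filter, 1342 to 1957 with an array left out and 0 on either slide alone (5763 and 4021 probes had an unadjusted p under 0.05). Median scaling gave 2014 higher and 1517 lower. The within-array comparisons were chosen after seeing the data, and with normexp Mt2 less Mt1 had an exact permutation p of 0.0286 and Slc39a10 less Slc39a14 one of 0.0571.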
